A study of Mus musculus with 16 samples.

Results

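The 47 genes described here code for the machinery that copies DNA in S phase. They are a list of named genes of that pathway, which sets no threshold on a measured value. All 47 had a row in both expression tables, which listed 17128 genes for plasmacytoid dendritic cells (pDCs) and 17721 for conventional dendritic cells (cDCs). The series comprises 16 bulk RNA-seq libraries of dendritic cells (DCs) sorted from the spleens of untreated C57BL/6 mice aged 6 to 8 weeks. WT mice carried loxP-flanked alleles of Trim33 (Trim33 fl/fl), a gene for a chromatin-binding transcriptional regulator. cKO mice carried the same alleles together with Itgax-Cre, a Cre recombinase under the promoter of the CD11c gene. pDCs were profiled in 3 libraries of each genotype, cDC1s in 2 of each and cDC2s in 3 of each. Each library was made from several pooled mice, with more mice per cKO pool, so n counts pools. The gates were CD11c+ SiglecH+ for pDCs, and CD11c+ SiglecH- MHC II+ with CD24+ CD172a- for cDC1s or CD24- CD172a+ for cDC2s. The design asks what the loss of TRIM33 from CD11c-expressing cells changed in each subset.

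A cell that divides first licenses its replication origins. The origin recognition complex, CDC6 and CDT1 load the MCM helicase (MCM2 to MCM7) onto DNA, and CDC45, the GINS complex and MCM10 switch it on in S phase. Primase and the alpha, delta and epsilon polymerases copy the strands, RFC loads the sliding clamp PCNA that holds polymerases on DNA, and FEN1 and LIG1 finish the lagging strand. RPA coats single-stranded DNA, while ribonucleotide reductase (RRM1 with RRM2), TYMS, TK1 and DUT supply nucleotides. CHAF1A and CHAF1B place histones on the new DNA, and UHRF1 directs its methylation. Many of these genes are known E2F targets, transcribed as cells enter S phase. Mature splenic pDCs are known to divide little, whereas splenic cDCs include cells that still divide.

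Because many of the 47 are known E2F targets, their promoters were read for E2F words. Windows from 250 bases before to 50 bases after a start site were found in RefSeq (GRCm38.p6) for 39 of the 47 genes. None was held for Mcm4, Gins1, Gins2, Gins4, Prim2, Pole, Rfc2 or Tipin. The 39 genes had 45 windows, since some had more than 1 start site. For 36 of these windows the first 20 transcribed bases lay in a GENCODE transcript. Both strands were searched for E2F words (TTTCGCGC, TTTGGCGC, TTTCCCGC or TTTGCCGC), for CCAAT, the motif of NF-Y, and for TTTGAA, the cell cycle homology region known from genes of G2 and mitosis. An E2F word was present for 16 of the 39 genes, or 41%, against 4.85% of the 9761 tested genes with a window and 2.6% of all 27025 genes with one. CCAAT was present for 25 (64.1%, against 43.5% and 41.1%), and TTTGAA for 5 (12.8%, against 15% and 20.2%). Both an E2F word and CCAAT were present for 10 genes, or 25.6%, against 2.45% and 1.26%. E2F words on opposite strands can overlap. The shares were not tested, and a match describes the letters rather than a site that was measured.

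The 6 promoters shown are those of the helicase genes Mcm5 and Mcm6, of the helicase loader Cdc6, and of Pclaf, Rrm2 and Uhrf1, the 3 genes with the largest fold changes in pDCs. Each is the 190 bases before a start site in RefSeq, read 5′ to 3′ on the strand of the gene in GRCm38.p6. The stretches of Uhrf1 and Cdc6 lie wholly inside the span of the gene, which begins at chr17:56303337 and chr11:98907709. That of Mcm5 runs past the first base of its gene, chr8:75109468. Capitals mark E2F words and CCAAT, or their reverse complements.
Mcm5 promoter (chr8:75109319-75109508, plus strand): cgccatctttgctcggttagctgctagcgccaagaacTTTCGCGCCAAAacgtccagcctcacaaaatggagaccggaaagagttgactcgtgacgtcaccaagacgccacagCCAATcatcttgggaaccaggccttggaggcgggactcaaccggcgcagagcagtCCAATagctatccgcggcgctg
Mcm6 promoter (chr1:128359706-128359895, minus strand): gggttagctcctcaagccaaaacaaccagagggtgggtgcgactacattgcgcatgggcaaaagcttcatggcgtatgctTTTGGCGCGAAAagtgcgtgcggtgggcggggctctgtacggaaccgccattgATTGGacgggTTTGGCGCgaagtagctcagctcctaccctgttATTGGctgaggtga
Uhrf1 promoter (chr17:56304123-56304312, plus strand): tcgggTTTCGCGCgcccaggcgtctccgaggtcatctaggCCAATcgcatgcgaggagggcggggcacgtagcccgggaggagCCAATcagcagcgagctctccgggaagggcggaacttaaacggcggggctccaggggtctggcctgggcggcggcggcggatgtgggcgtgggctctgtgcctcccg
Cdc6 promoter (chr11:98907961-98908150, plus strand): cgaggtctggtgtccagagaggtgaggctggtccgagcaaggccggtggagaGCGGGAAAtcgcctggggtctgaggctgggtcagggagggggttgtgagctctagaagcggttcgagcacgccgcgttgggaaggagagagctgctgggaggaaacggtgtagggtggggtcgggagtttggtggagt
Pclaf promoter (chr9:65890133-65890322, plus strand): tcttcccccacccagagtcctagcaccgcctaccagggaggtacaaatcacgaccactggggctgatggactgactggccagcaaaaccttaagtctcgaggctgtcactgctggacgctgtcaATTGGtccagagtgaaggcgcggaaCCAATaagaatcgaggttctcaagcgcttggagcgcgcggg
Rrm2 promoter (chr12:24708064-24708253, plus strand): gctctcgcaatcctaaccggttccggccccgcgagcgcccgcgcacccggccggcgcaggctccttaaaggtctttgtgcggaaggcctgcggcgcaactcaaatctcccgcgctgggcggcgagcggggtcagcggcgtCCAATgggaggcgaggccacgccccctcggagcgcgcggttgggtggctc

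Mcm6 held 3 E2F words, of which 2 overlap, Mcm5 held 2 that overlap, and Uhrf1 and Cdc6 held 1 each. The word of Pclaf lies across the start site, from base -5 to base 2 with the first transcribed base as 0, and is therefore outside the stretch shown. Rrm2 had no E2F word of these letters in its window. Pold3, with a log2 fold change of 0.00 in pDCs, had a word from base 17 to base 24.

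**Figure D1:**
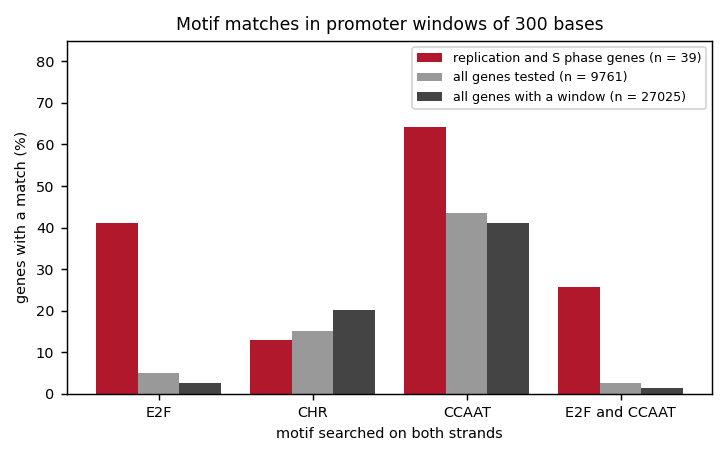
Share of genes with at least 1 match in a promoter window of 300 bases (%, vertical axis) for each motif searched (horizontal axis), for the 39 replication and S phase genes, the 9761 tested genes and all 27025 genes with a window. E2F words were present in 41% of the replication genes and in 4.85% and 2.6% of the larger sets.

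Levels are given in TPM, a share of all transcripts in a library corrected for transcript length. Depth, estimated from the steps between the lowest values, was about 17900000 to 20200000 reads per library, at which 3 reads on a transcript of 2000 bases are worth 0.140 to 0.185 TPM (counting error only). Genes averaging 1 TPM or more were tested with limma on log2(TPM + 1). Calls required a log2 fold change of 0.5 or more in either direction, together with a Benjamini-Hochberg adjusted p no greater than 0.01. Trim33 read 20.6, 23.8 and 22.3 TPM in WT and 12.6, 16.5 and 11.7 in cKO pDCs, 15.5 and 18.2 TPM in WT and 7.88 and 7.71 in cKO cDC1s, and 20.6, 18.2 and 17.2 TPM in WT and 7.93, 7.13 and 8.07 in cKO cDC2s. Every cKO library was below every WT library of its subset, and the drop was called in cDC1s (log2 -1.02 ± 0.13, adjusted p = 0.000349) and cDC2s (-1.17 ± 0.11, adjusted p = 0.000126) but not in pDCs (-0.68 ± 0.13, adjusted p = 0.0301). The tables sum over the whole gene and do not separate the deleted part. The 10 pDC markers summed to 18622 to 20659 TPM in pDC libraries and at most 580.0 in cDC libraries, and the 10 cDC1 markers to 4188 or more in cDC1s and at most 649 elsewhere. The 9 cDC2 markers summed to 1898 to 2175 TPM in WT and 1536 to 1785 in cKO cDC2s and at most 71.8 in cDC1s, but to 2213 to 2306 in WT and 2002 to 2151 in cKO pDCs, so that they did not set cDC2s apart from pDCs. Of the 9, Clec4a4, Esam and Dtx1 were at most 2.22 TPM in pDCs, and Cd4, Clec10a and Cd209a were the highest there, at 322 or more.

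Pcna was the most abundant of the 47 transcripts in every group, with a WT mean of 235 ± 37.6 TPM in pDCs (SD, n = 3), 266 ± 61.9 in cDC1s (SD, n = 2) and 329 ± 16.4 in cDC2s (SD, n = 3). In WT pDCs 5 genes averaged under 1 TPM, namely Orc1, Cdc6, Mcm10, Gins1 and Pole, whereas none did in WT cDC1s or WT cDC2s. The 47 genes summed to 982 to 1048 TPM in WT pDCs and 1301 to 1506 in cKO pDCs. The sums were 1622 and 1857 against 4339 and 4426 TPM in cDC1s and 1796 to 2115 against 3035 to 3601 in cDC2s. The genotypes did not overlap in any subset, and the mean sum in cKO was 1.41 times that in WT in pDCs, 2.52 times in cDC1s and 1.70 times in cDC2s. In bulk samples a larger share of cells in S phase and more of these transcripts per cell cannot be told apart. pDC and cDC levels come from separate tables and were not tested against each other.

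**Figure D2:**
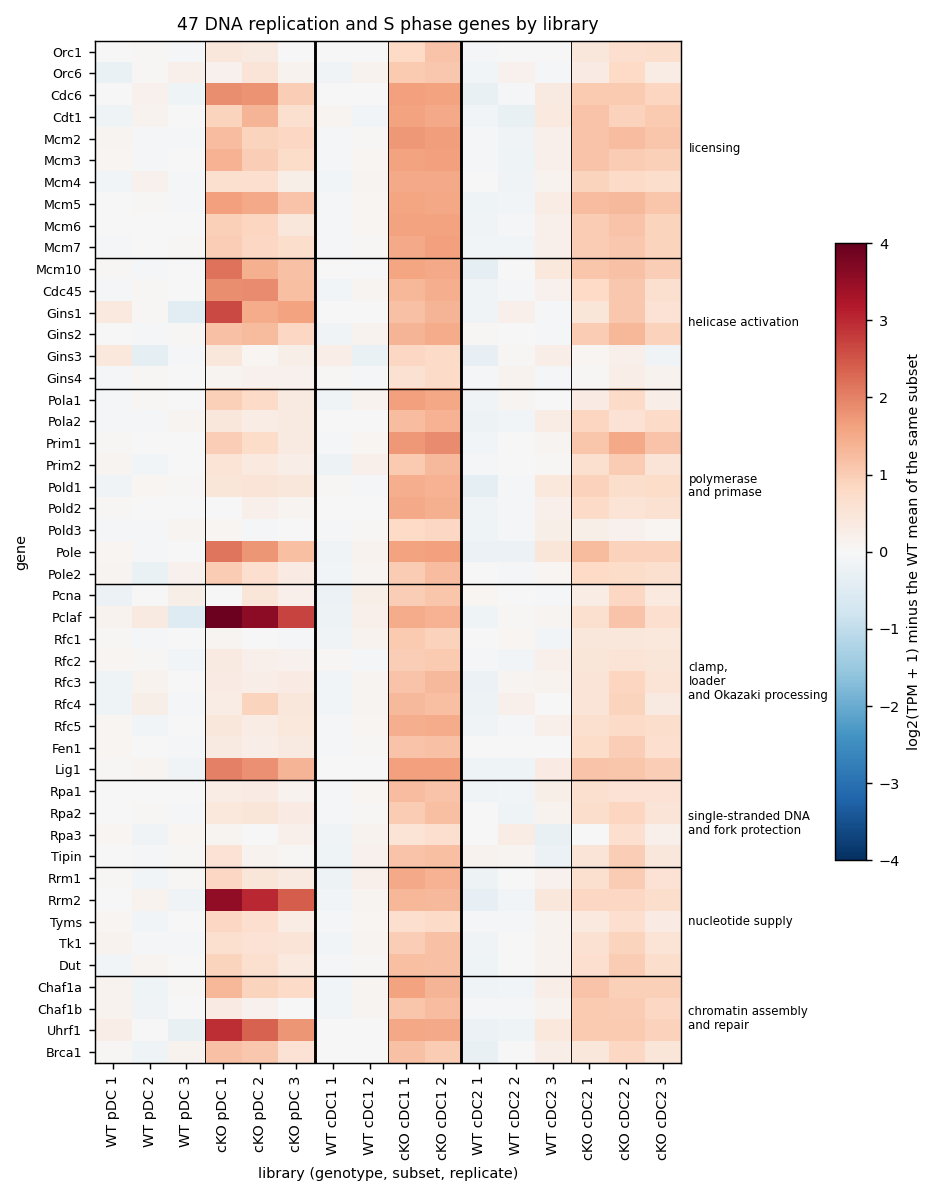
Level of each gene (rows, grouped by role) in each library (columns), shown as log2(TPM + 1) minus the mean of the WT libraries of the same subset (color scale in log2 units). Pclaf, Rrm2 and Uhrf1 stand out in cKO pDCs, with fold changes of 3.40, 2.99 and 2.36 on the log2 scale, whereas the middle 50% of genes in cDC1s lie between 1.11 and 1.53.

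In pDCs 10 of the 46 tested genes rose in cKO and none fell. They were Mcm2, Mcm5, Mcm7, Cdc45, Gins2, Pole, Pclaf, Lig1, Rrm2 and Uhrf1. Of all 11299 genes tested in pDCs, 0.814% were called higher and 0.239% lower, or 1.05% in all. The median log2 fold change was 0.59 for the 46 genes (1.51-fold) and -0.05 for all genes, and the middle 50% of the 46 ran from 0.28 to 1.03. All 46 fold changes were positive, as were all 43 of the genes tested with FPKM in place of TPM. An unadjusted p under 0.05 was found for 36 of the 46, as for 20.8% of all genes. Every cKO library was above every WT library for 38 of the 46, as for 10.8% of all genes. Orc1 averaged under 1 TPM and was not tested, and Cdc6, Mcm10, Gins1 and Pole passed that filter only through their cKO libraries. Without those 4 genes, 9 of 42 were called, with a median of 0.56.

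The number called in pDCs moved with the settings. WT and cKO pDC libraries with the same replicate number deviated together, a pairing seen in the data and not stated by the labels. With that number as a block 19 of the 46 were called, beside 335 of all 11299 genes (119 without the block). The 19 were the same 10 and also Cdc6, Cdt1, Mcm3, Mcm6, Mcm10, Gins1, Rrm1, Tk1 and Chaf1a. Of the genes added, Cdc6, Mcm10 and Gins1 passed the filter only through their cKO libraries. None was called by limma without the filter on low levels, beside 24 of all 17125 genes. There 37 of the 47 had an unadjusted p under 0.05, beside 2844 of all genes. Without WT pDC library 3 none was called either (36 of 46 had an unadjusted p under 0.05). The number called was 4 without WT library 1, 4 without WT library 2, 6 without cKO library 1 and 2 without cKO library 2. Leaving out 1 library gave 12 to 97 of all genes called.

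The clamp and Okazaki genes held both the largest change and one of the smallest. Pclaf, whose product binds PCNA, read 2.12, 2.64 and 1 TPM in WT and 41.6, 32.97 and 17.5 in cKO pDCs. The lowest cKO library was well above the highest WT library, and the log2 fold change was 3.40 ± 0.33 (SE, adjusted p = 0.00258). Lig1, the ligase that seals Okazaki fragments, rose from 4.09, 4.28 and 3.48 TPM to 19, 16.6 and 11.6 (log2 1.74 ± 0.17, adjusted p = 0.00281). Pcna itself overlapped between genotypes, at 198, 234 and 273 TPM in WT and 238, 325 and 270.3 in cKO (0.24 ± 0.14, adjusted p = 0.38). The clamp loader gene Rfc1 was at 43.2 to 46.7 TPM in WT and 42.8 to 48.96 in cKO (0.01 ± 0.07, adjusted p = 0.935), and Rfc2 to Rfc5 had log2 fold changes of 0.24 to 0.55, none called. Pclaf stood at 0.00366 to 0.0113 times Pcna in WT pDCs and 0.0647 to 0.175 times in cKO pDCs, and at 0.219 and 0.228 times in WT cDC1s.

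The subunits of ribonucleotide reductase differed from each other in pDCs. Rrm2, the subunit made in S phase, rose from 1.55, 1.76 and 1.28 TPM in WT pDCs to 28.2, 19.2 and 12.5 in cKO pDCs (log2 2.99 ± 0.26, adjusted p = 0.00157). Rrm1, the large catalytic subunit, read 20.2, 17.9 and 19.98 TPM in WT and 34.98, 27.6 and 25.3 in cKO, without overlap. Its log2 fold change of 0.56 ± 0.12 missed the threshold (adjusted p = 0.0468) except with the replicate block (adjusted p = 0.00957). The ratio of Rrm2 to Rrm1 was 0.0641 to 0.0985 in WT pDCs and 0.495 to 0.806 in cKO pDCs, and it was above 1 in every cDC library, from 1.07 to 1.47. The thymidine and dUTP genes Tyms, Tk1 and Dut had log2 fold changes of 0.58 to 0.65, none called.

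Among the licensing genes, Mcm5 rose from 10.2, 10.5 and 9.5 TPM to 33.8, 30.9 and 23.4 in pDCs (log2 1.44 ± 0.14, adjusted p = 0.00246). Mcm2 (0.98 ± 0.12, adjusted p = 0.00566) and Mcm7 (0.85 ± 0.08, adjusted p = 0.00264) rose too, while Mcm3, Mcm4 and Mcm6 had log2 fold changes of 1.04, 0.52 and 0.76, not called. The MCM ring holds a single copy of each of these subunits. Their transcripts were uneven in WT pDCs, where the highest (Mcm6) was 3.06 to 3.32 times the lowest (Mcm5), and less so in cKO pDCs, at 1.88 to 1.90 times. Cdc6, which is made anew in each cycle, read 0.39, 0.57 and 0.23 TPM in WT and 4.07, 3.79 and 1.75 in cKO (log2 1.55 ± 0.25, adjusted p = 0.0177, and 0.00274 with the replicate block). The groups lay apart for Cdc6 but overlapped for Orc6, a subunit of the origin recognition complex, at 12.7 to 18.2 TPM in WT and 17.2 to 22.7 in cKO (0.28 ± 0.15, adjusted p = 0.351). Orc1, its largest subunit, read 0.39, 0.42 and 0.3 TPM in WT and 0.89, 0.74 and 0.34 in cKO.

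The helicase activators were split within the GINS complex. Cdc45 rose from 1.46, 1.62 and 1.58 TPM in WT pDCs to 8.32, 8.44 and 4.93 in cKO pDCs (log2 1.66 ± 0.19, adjusted p = 0.00566), and Gins2 from 4.03, 3.89 and 4.25 to 10.3, 11.3 and 8.05 (1.10 ± 0.14, adjusted p = 0.00659). Gins1 read 0.98, 0.57 and 0.11 TPM in WT and 8.34, 3.26 and 3.66 in cKO (log2 1.92 ± 0.34, adjusted p = 0.0215, and 0.00119 with the replicate block). Gins3 and Gins4 had log2 fold changes of 0.26 and 0.15, and Gins4 lay at 33.5 to 35.6 TPM in WT and 36.8 to 38.8 in cKO (0.15 ± 0.06, adjusted p = 0.252). Of the polymerase genes only Pole, the catalytic subunit of polymerase epsilon, was called. Pole read 0.57, 0.4 and 0.49 TPM in WT and 5.53, 4.08 and 2.42 in cKO (log2 1.70 ± 0.24, adjusted p = 0.00987). Gins1 and Pole passed the filter only through their cKO libraries, and Pole was called in 1 of the 6 fits that left out 1 library. Pold3, an accessory subunit of polymerase delta, overlapped fully, at 40.4 to 45.2 TPM in WT and 40.5 to 44.1 in cKO (0.00 ± 0.07, adjusted p = 0.989).

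Uhrf1 read 2.84, 2.19 and 1.59 TPM in WT and 23.4, 15.2 and 9.83 in cKO pDCs (log2 2.36 ± 0.29, adjusted p = 0.0063), whereas Chaf1b was at 4.41 to 5.58 TPM in WT and 4.9 to 6.47 in cKO (0.15 ± 0.14, adjusted p = 0.576). The RPA genes lay between Rpa3 (0.09 ± 0.09, adjusted p = 0.594) and Rpa2 (0.40 ± 0.08, adjusted p = 0.0379). For Pclaf, Lig1, Rrm2, Mcm5, Pole and Uhrf1, cKO library 1 was the highest and cKO library 3 the lowest of the cKO libraries. Across the 46 genes, those with the lower WT level had the larger fold change in pDCs (Spearman rho -0.75), whereas rho was 0.12 in cDC1s and 0.04 in cDC2s over 47 genes. Without Cdc6, Mcm10, Gins1 and Pole, which the filter kept only because of their cKO libraries, rho in pDCs was -0.69 over 42 genes, a value added after seeing the data. These are descriptions, since the genes share their libraries, the WT level enters both quantities and the filter takes out genes that are low in both genotypes.

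**Figure D3:**
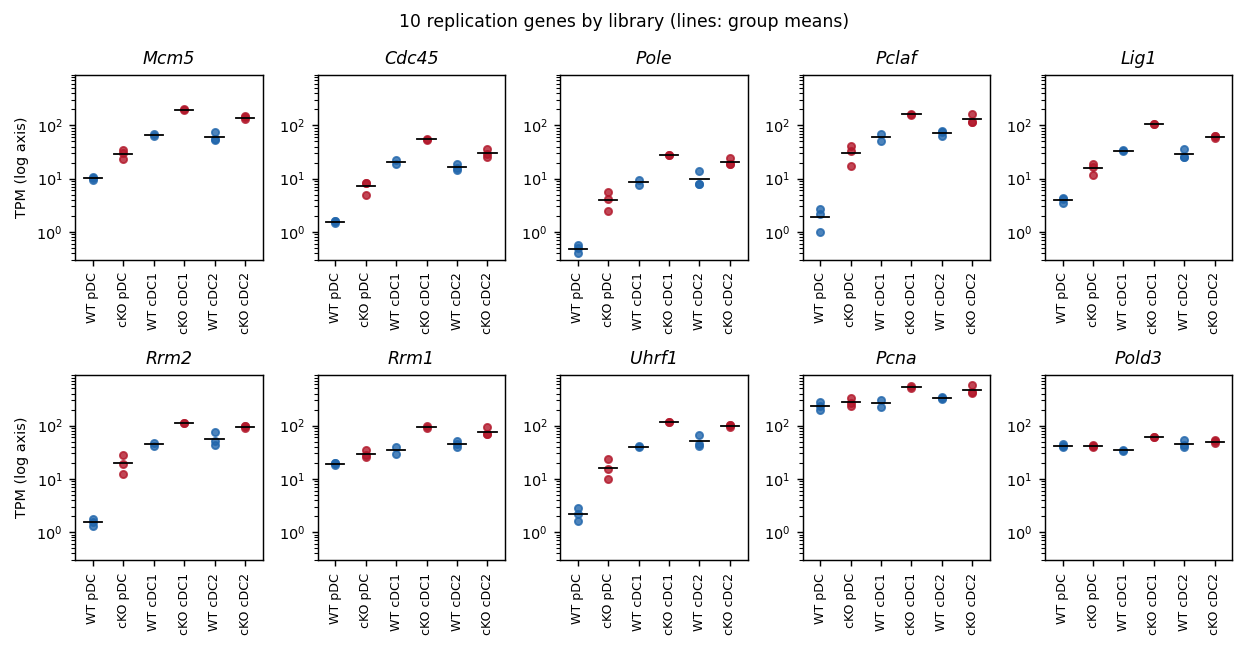
TPM (vertical axis, log scale) of 10 replication genes in each library of the 6 groups (horizontal axis), with WT and cKO in separate colors and lines at the group means. Pole, Pclaf, Rrm2 and Uhrf1 are at most 2.84 TPM in WT pDCs, and each is higher in every cKO pDC library than in any WT one.

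In cDC1s all 47 genes stood higher in cKO. Of them 45 rose in cKO and none fell, with 15.8% of all 11411 genes tested in cDCs called higher, 6.56% lower and 22.4% in all. The median log2 fold change was 1.31 (2.48-fold), with the middle 50% between 1.11 and 1.53, and that of all genes was 0.17. Scaling the libraries by median-of-ratios brought these medians to 1.14 and 0.02, so that the distance between them was 1.13 in place of 1.14. The calls over all genes were then 1068 higher and 1070 lower, in place of 1806 and 749. All 47 had an unadjusted p under 0.05, as had 48.6% of all genes, and all 47 had both cKO libraries above both WT libraries, as had 52.1%. The 2 genes not called were Gins3 (0.79 ± 0.22, adjusted p = 0.0162) and Rpa3 (0.60 ± 0.23, adjusted p = 0.0589), the small subunit of RPA.

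All 10 licensing genes rose in cDC1s. Mcm2 read 51 and 54.95 TPM in WT and 178 and 171 in cKO (log2 1.70 ± 0.12, adjusted p = 1.97e-05), and Orc1, with the smallest change of the 10, 2.54 and 2.4 TPM in WT and 5.05 and 6.65 in cKO (0.97 ± 0.16, adjusted p = 0.00139). The log2 fold changes of Mcm2 to Mcm7 spanned 1.51 to 1.70, against 0.52 to 1.44 in pDCs. Their summed level was 391 and 431 TPM in WT and 1253 and 1262 in cKO. The highest subunit was 1.95 and 2.08 times the lowest in WT and 2.12 and 2.15 times in cKO.

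Prim1, the catalytic subunit of primase, had the largest fold change of the 47 in cDC1s, at 20.9 and 23.8 TPM in WT and 76.4 and 85.3 in cKO (log2 1.81 ± 0.15, adjusted p = 4.46e-05). All 9 polymerase and primase genes rose, down to Pold3 with 33.3 and 35.7 TPM in WT and 60.5 and 61.3 in cKO (0.80 ± 0.13, adjusted p = 0.00133). The 9 clamp, loader and Okazaki genes rose as well, from Lig1 (33.8 and 33.4 TPM in WT and 106 and 107 in cKO, log2 1.64 ± 0.16, adjusted p = 9.92e-05) to Rfc1 (22.4 and 27.6 TPM in WT and 52.8 and 48.2 in cKO, log2 0.99 ± 0.12, adjusted p = 0.000292). Pcna, not called in pDCs, read 222 and 309.6 TPM in WT and 519.8 and 562 in cKO (1.04 ± 0.19, adjusted p = 0.00198). Of the 6 helicase activators 5 rose, from Mcm10 (1.55 ± 0.21, adjusted p = 0.000494) to Gins4 (0.68 ± 0.12, adjusted p = 0.0018).

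The subunits Rrm1 and Rrm2 both rose in cDC1s, whereas Rrm2b, outside the 47, was not called (0.07 ± 0.12, adjusted p = 0.699). Rrm1 read 29.1 and 39.2 TPM in WT and 97.8 and 90.7 in cKO (log2 1.45 ± 0.19, adjusted p = 0.00036) and Rrm2 41.2 and 47.98 TPM in WT and 113 and 110.3 in cKO (1.31 ± 0.21, adjusted p = 0.00112), and their ratio was 1.22 and 1.42 in WT and 1.16 and 1.22 in cKO. Tyms, which makes thymidylate, had the smallest change of the nucleotide genes (0.71 ± 0.14, adjusted p = 0.00298). Uhrf1 read 39.5 and 41.01 TPM in WT and 118 and 116 in cKO (1.52 ± 0.18, adjusted p = 0.00026), and Brca1, which protects stalled forks, 6.02 and 6.03 TPM in WT and 14.9 and 13.1 in cKO (1.09 ± 0.19, adjusted p = 0.00175). Rpa1, the large subunit of RPA, had the largest change of its role (1.19 ± 0.13, adjusted p = 0.000156). Without any 1 of the 10 cDC libraries, 36 to 46 of the 47 were called, and with 1 cDC1 library left in a group that library was assumed to vary like the other groups.

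In cDC2s the fold changes were again positive for all 47 genes. Of them 31 rose and none fell, with 3.59% of all genes called higher, 3.56% lower and 7.15% in all. The median was 0.73 (1.66-fold), with the middle 50% between 0.60 and 1.00, and that of all genes -0.03. An unadjusted p under 0.05 was found for 43 of the 47 (34.1% of all genes), and 43 had all cKO libraries above all WT libraries (16.3% of all genes). The number called was 17 with cDC2s fitted alone, 19 without WT cDC2 library 1, 19 without WT library 2, 16 without cKO library 1 and 18 without cKO library 3. With FPKM in place of TPM the calls over all genes split 524 higher to 335 lower, against 410 to 406, and with median-of-ratios 580 to 379.

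Prim1 again had the largest change, at 23.6, 25.9 and 27.7 TPM in WT and 57, 76.01 and 58.5 in cKO (log2 1.27 ± 0.12, adjusted p = 0.000208). Mcm5 read 52.8, 55.6 and 73.96 TPM in WT and 141, 148 and 130.4 in cKO (1.20 ± 0.12, adjusted p = 0.000273). All of Mcm2 to Mcm7 rose, by 0.78 to 1.20 on the log2 scale, and summed to 383 to 483 TPM in WT and 803 to 893 in cKO. The largest changes in the other roles were those of Gins2 (1.09 ± 0.12, adjusted p = 0.000423), Lig1 (1.09 ± 0.13, adjusted p = 0.000673), Uhrf1 (1.01 ± 0.15, adjusted p = 0.00182), Dut (0.80 ± 0.11, adjusted p = 0.00144) and Rpa2 (0.69 ± 0.12, adjusted p = 0.00358).

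Several partners of these genes were not called in cDC2s. Gins3 overlapped, at 11.6, 15.1 and 17.9 TPM in WT and 15.4, 17.1 and 13.1 in cKO (0.04 ± 0.18, adjusted p = 0.894), and Pold3 was at 39.5 to 53.1 TPM in WT and 47.5 to 52.6 in cKO (0.16 ± 0.11, adjusted p = 0.342). Rpa3 (0.30 ± 0.19, adjusted p = 0.291), Rfc1 (0.45 ± 0.10, adjusted p = 0.0128), Tyms (0.47 ± 0.11, adjusted p = 0.0176), Orc6 (0.48 ± 0.14, adjusted p = 0.0407) and Brca1 (0.58 ± 0.16, adjusted p = 0.0273) had the smallest values in their roles. Rrm2 read 43.1, 50.4 and 75.5 TPM in WT and 98.6, 98.8 and 89.1 in cKO, without overlap, and missed the threshold (0.79 ± 0.17, adjusted p = 0.0113). Of the 10 genes called in pDCs, all but Rrm2 were called in cDC2s. These 10 and the 31 called in cDC2s were all called in cDC1s. With 45 of the 47 called in cDC1s, there was little room for another outcome.

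**Figure D4:**
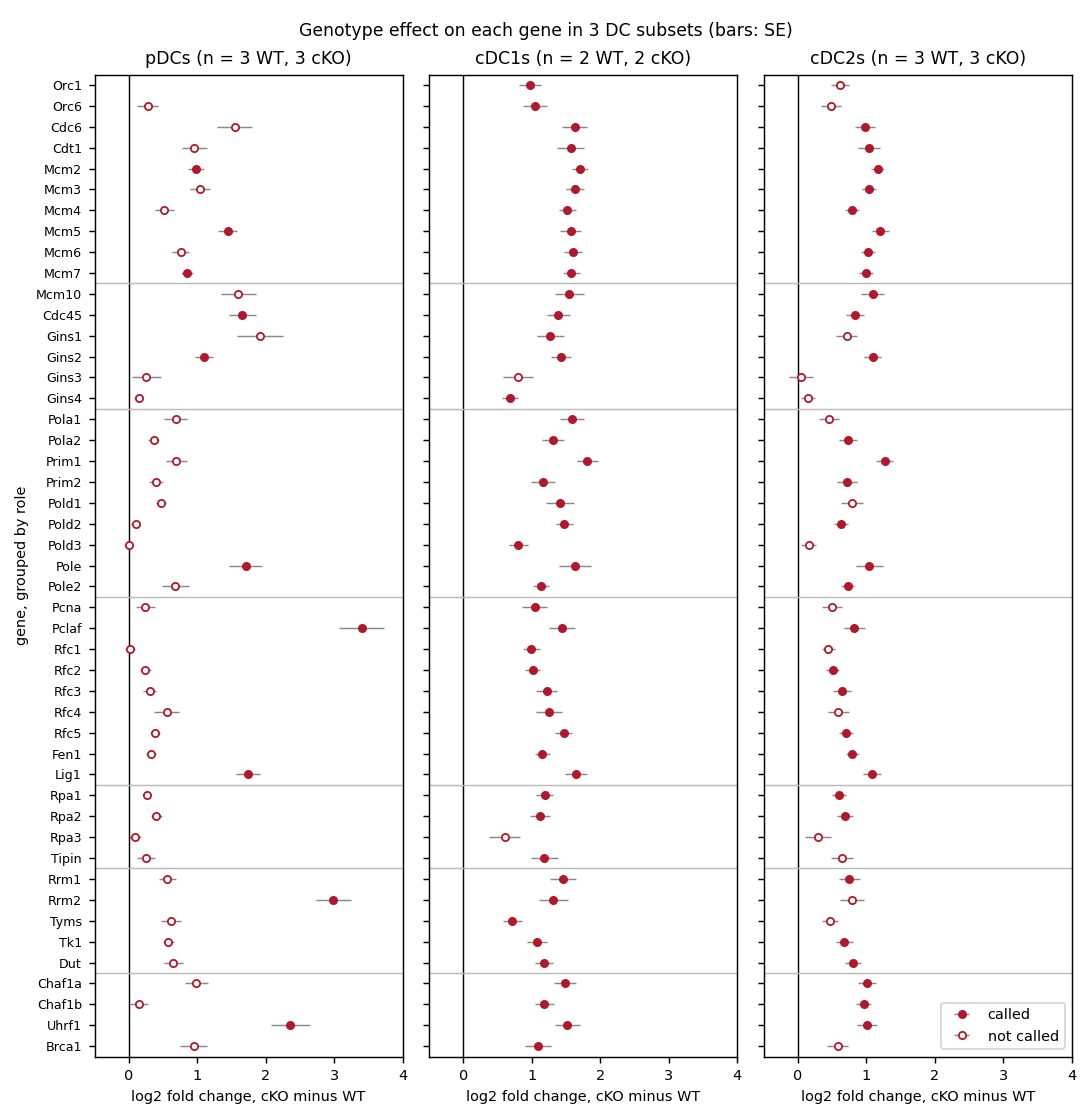
Log2 fold change of each gene (cKO minus WT, horizontal axis, with SE) in pDCs, cDC1s and cDC2s, with the genes grouped by role (vertical axis) and called genes marked by filled points. The values run from 0.00 to 3.40 in pDCs, from 0.60 to 1.81 in cDC1s and from 0.04 to 1.27 in cDC2s.

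Whether the effect differed between cDC1s and cDC2s was tested as an interaction. The cDC1 effect minus the cDC2 effect was positive for all 47 genes (46 with quantile normalization), with a median of 0.54 against 0.22 for all genes. None of the 47 was called by limma, beside 1.21% of all genes called higher, 1.35% lower and 2.56% in all. An unadjusted p under 0.05 was found for 31 of the 47 and 30.7% of all genes (3499 of 11411). That number depended on the scaling, and was 8 of the 47 with median-of-ratios scaling (2653 of 11405 genes) and 11 with quantile normalization (2586 of 11411). The largest differences were those of Pola1, the catalytic subunit of polymerase alpha (1.13 ± 0.22, adjusted p = 0.0146), and Pold2, of polymerase delta (0.84 ± 0.16, adjusted p = 0.0137). With median-of-ratios scaling the medians were 0.32 for the 47 and 0.01 for all genes, whose calls then split 100 higher to 282 lower in place of 138 to 154.

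Between WT cDC1s and WT cDC2s, 3 of the 47 genes were called. Gins2 was higher in cDC1s (0.57 ± 0.14, adjusted p = 0.00572), and Gins3 (-1.24 ± 0.20, adjusted p = 0.00055) and Pola1 (-1.09 ± 0.16, adjusted p = 0.000271) were lower. Of all genes 10.9% were called higher, 20.8% lower and 31.7% in all. An unadjusted p under 0.05 was found for 12 of the 47 (55.2% of all genes). The median was -0.16 for the 47 and -0.17 for all genes, and turned to 0.04 and 0.01 with median-of-ratios scaling, under which all genes split 1817 higher to 1715 lower in place of 1241 to 2371.

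Between cKO cDC1s and cKO cDC2s, 15 of the 47 were higher in cDC1s and none lower. Of all genes 14.5% were called higher, 13.8% lower and 28.3% in all, and 30 of the 47 had an unadjusted p under 0.05 (52% of all genes). The 15 genes were Orc1, Mcm2, Mcm3, Mcm6, Cdc45, Gins2, Pold2, Rfc1, Rfc5, Fen1, Lig1, Rpa2, Dut, Chaf1a and Chaf1b. Pold2 had the largest difference, with 86.4 and 80.97 TPM in cDC1s and 45.2, 38.9 and 40.7 in cDC2s (0.99 ± 0.12, adjusted p = 6.55e-05). The number was 5 without cKO cDC1 library 1, 3 without cKO cDC1 library 2 and 8 without cKO cDC2 library 3.

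A list of 53 other replication genes gave, in cDC1s, 38 genes called higher and 1 lower, beside 15.8% and 6.56% of all genes, with a median of 1.05. Among the largest changes were those of Shmt1, a folate enzyme (1.77 ± 0.13), Timeless, which protects forks (1.75 ± 0.20), Dnmt1, the maintenance DNA methyltransferase (1.69 ± 0.21), and Dctd, a dCMP deaminase (1.65 ± 0.18). Pold4, a small subunit of polymerase delta, fell, with 179 and 164 TPM in WT and 108 and 116 in cKO (-0.61 ± 0.13, adjusted p = 0.00465), and is named after its value was seen. In cDC2s 15 rose (3.59% of all genes) and none fell, and the median was 0.47, with the helicase gene Recql4 (1.08 ± 0.17), Hells (1.03 ± 0.13), Exo1 (0.99 ± 0.13) and Dscc1 (0.97 ± 0.15) among the highest. In pDCs the median was 0.25 and only Asf1b, a histone chaperone, was called (1 of 53 tested, beside 0.814% of all genes). Asf1b read 2.75, 2.5 and 2.82 TPM in WT and 19.6, 16.9 and 8.54 in cKO (2.04 ± 0.26, adjusted p = 0.0077). Ticrr (1.38 ± 0.30) and Exo1 (1.26 ± 0.23) were not called. With the replicate block 7 of the 53 were called, beside 335 of all 11299 genes.

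Of 19 genes of the E2F family and the DREAM complex, which switch cell cycle genes on and off, 11 rose in cDC1s, 4 in cDC2s and 2 of the 18 tested in pDCs, and none fell. Of all genes 15.8%, 3.59% and 0.814% were called higher in these subsets, and the medians of the list were 0.79, 0.21 and 0.18. E2f8, a repressing E2F, had the largest fold change in pDCs, with 1.08, 0.72 and 0.49 TPM in WT and 15.99, 10.4 and 6.17 in cKO (2.68 ± 0.30, adjusted p = 0.00434). Mybl2 (1.61 ± 0.25), Foxm1 (0.55 ± 0.15) and Lin9 (0.49 ± 0.11) were not called there, and the activator E2f2 was (1.59 ± 0.21, adjusted p = 0.00835). Both E2f8 and E2f2 passed the filter only through their cKO libraries. In cDC1s E2f8 (1.70 ± 0.26), Mybl2 (1.47 ± 0.23), E2f2 (1.38 ± 0.13), E2f1 (1.21 ± 0.14) and E2f7 (1.19 ± 0.26) were highest and called. In cDC2s E2f1 (0.95 ± 0.12), Mybl2 (0.94 ± 0.19), E2f6 (0.68 ± 0.12) and Tfdp1 (0.54 ± 0.11) were called, and E2f8 (0.75 ± 0.21) and E2f7 (0.62 ± 0.21) were not.

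Of 12 genes of G2 and mitosis, 11 were tested in pDCs and 5 rose: Top2a, a topoisomerase (3.13 ± 0.26), the proliferation marker Mki67 (2.70 ± 0.32), the cyclin gene Ccnb2 (2.67 ± 0.24), the spindle motor gene Kif11 (2.49 ± 0.27) and Birc5 (2.36 ± 0.29). Of all genes 0.814% were called higher in pDCs. With the replicate block all 11 were called, beside 335 of all 11299 genes. Of the 11, 6 passed the filter only through cKO libraries, among them Ccnb2 and Kif11. The 12 genes summed to 13.2 to 16.6 TPM in WT pDCs and 69.4 to 168 in cKO pDCs. The 47 replication genes summed to 60.8 to 79.1 times the mitotic genes in WT pDCs and 8.97 to 18.7 times in cKO pDCs, against 4.60 to 9.25 times in cDC libraries. In cDC1s 5 of the 12 rose, beside 15.8% of all genes, namely Mki67 (1.44 ± 0.25), Top2a (1.34 ± 0.24), Kif11 (1.20 ± 0.24), Bub1 (1.11 ± 0.22) and Birc5 (0.93 ± 0.23), and Aurkb (1.20 ± 0.31) was not called. In cDC2s none was called by limma, beside 3.59% of all genes called higher, and 3 had an unadjusted p under 0.05, beside 34.1% of all genes. The sums overlapped, at 297 to 459.6 TPM in WT and 451 to 548 in cKO. The largest there were Aurkb (0.81 ± 0.26), Top2a (0.61 ± 0.20), Bub1 (0.59 ± 0.18), Mki67 (0.41 ± 0.20) and Kif11 (0.39 ± 0.20).

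**Figure D5:**
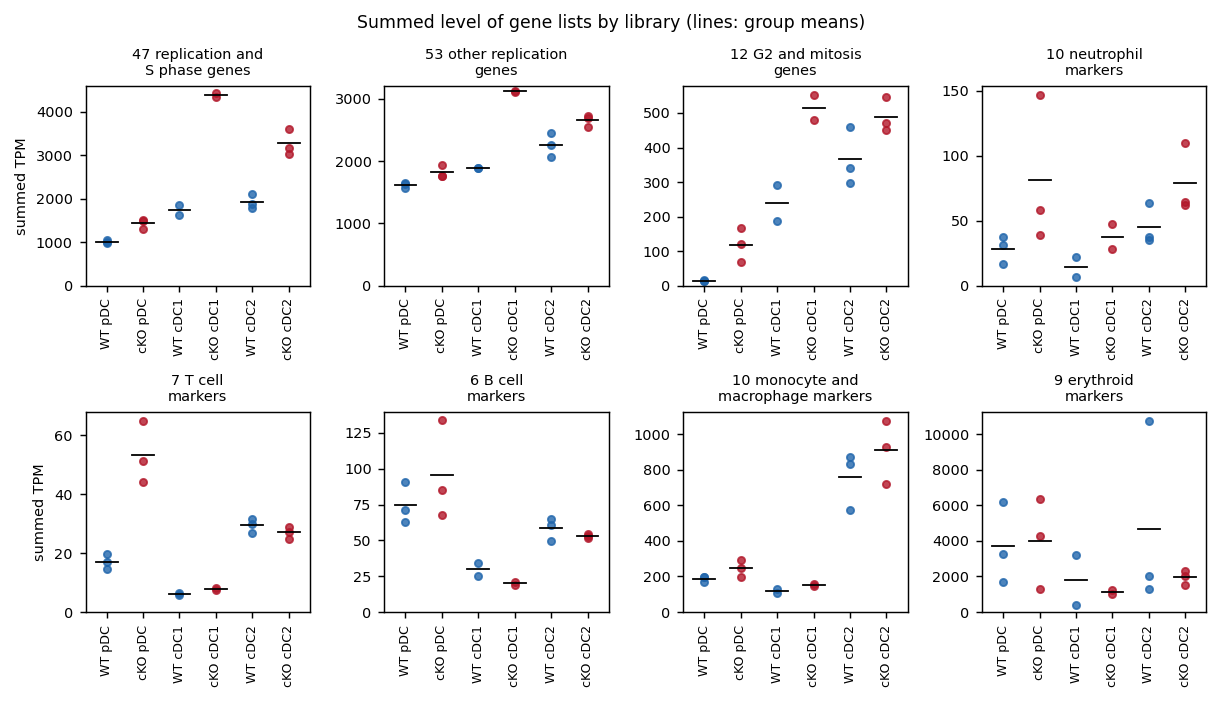
Summed TPM (vertical axis) of the replication genes, related gene lists and marker lists of other cells in each library, with WT and cKO in separate colors. The replication sums separate the genotypes in every subset, whereas the sums of the mitotic genes overlap in cDC2s.

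Markers of the subsets themselves changed too, and their part in the results was not tested. Of the 9 cDC2 markers, 4 fell and 2 rose in cKO cDC2s, beside 3.56% and 3.59% of all genes, with a median of -0.77. Cd4 read 308, 261 and 366 TPM in WT and 135, 108 and 117 in cKO cDC2s (-1.37 ± 0.15, adjusted p = 0.000478), and Esam (-1.17 ± 0.16, adjusted p = 0.0011), Dtx1 (-1.20 ± 0.20, adjusted p = 0.00322) and Irf4 (-1.08 ± 0.19, adjusted p = 0.004) fell with it, whereas Clec10a (1.55 ± 0.21, adjusted p = 0.00115) and Itgam (1.03 ± 0.14, adjusted p = 0.00134) rose. Of the 10 cDC1 markers, 3 fell in cKO cDC1s and none rose, beside 6.56% of all genes called lower and 15.8% higher. The median was -0.26, and the 3 were Itgae (-2.70 ± 0.27, adjusted p = 0.000102), Cadm1 (-1.74 ± 0.32, adjusted p = 0.0021) and Clec9a (-1.33 ± 0.32, adjusted p = 0.00889). Of the 10 pDC markers, only Cox6a2 was called in cKO pDCs, as higher (1.46 ± 0.11, adjusted p = 0.00128), beside 0.814% of all genes, and the median was -0.03.

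Markers of other cells were read in the same libraries, and their part in the results was not tested either. The 10 neutrophil markers summed to 16.9 to 37.2 TPM in WT and 38.97 to 147 in cKO pDCs (library 1 highest), to 6.83 and 22.3 against 27.96 and 47.7 in cDC1s, and overlapped in cDC2s. Of the 7 tested, 6 had a positive log2 fold change in each subset and none was called by limma. There were 3, 1 and 1 with an unadjusted p under 0.05 in pDCs, cDC1s and cDC2s, beside 20.8%, 48.6% and 34.1% of all genes. Ly6g was at most 0.82 TPM in any library. The sum of the 7 measured T cell markers was 14.4 to 19.7 TPM in WT and 44.2 to 64.9 in cKO pDCs and 5.77 and 6.39 against 7.62 and 8.03 in cDC1s. It rested on Thy1, Cd5 and Lck, the only 3 tested, of which Thy1 alone was called, in pDCs (7.43 to 12.3 against 28.4 to 46.97 TPM, 1.93 ± 0.22, adjusted p = 0.00561). The other 4 were at most 0.94 TPM in pDCs and 0.6 in cDC1s, and their means were lower in cKO than in WT cDC1s.

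The 6 B cell markers summed to 62.5 to 90.5 TPM in WT and 67.4 to 134 in cKO pDCs, overlapped in cDC2s too, and summed to 25.4 and 34.2 against 18.9 and 20.9 in cDC1s. In cDC1s Ms4a1 fell, from 17.7 and 21.2 TPM to 6.17 and 6.45 (-1.48 ± 0.21, adjusted p = 0.000602), whereas Cd79b was higher without being called, at 1.66 and 4.58 TPM in WT and 6.41 and 8.04 in cKO (1.09 ± 0.27, adjusted p = 0.011), and the median of the 4 tested was 0.00. Ms4a1 fell in cDC2s as well (-1.46 ± 0.17, adjusted p = 0.000614). S1pr2, a marker of germinal center B cells, read 5.85 and 4.35 TPM in WT and 8.92 and 8.35 in cKO cDC1s, and 1.99, 3.54 and 2.26 TPM in WT and 4.72, 3.98 and 4.2 in cKO cDC2s.

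The 10 monocyte and macrophage markers summed to 168 to 199 TPM in WT and 197 to 292 in cKO pDCs. Of the 9 tested there, 8 were positive, 6 had an unadjusted p under 0.05 (20.8% of all genes) and none was called by limma. In cDC1s the sum was 107 and 131 against 144 and 157 TPM, but only Ccr2 (15.7 and 31.6 TPM in WT and 108 and 90.6 in cKO, 2.10 ± 0.36, adjusted p = 0.00153) and Csf1r (0.85 ± 0.19, adjusted p = 0.00636) were positive, and both were called. Of the other 8, Vcam1 was called lower (-1.92 ± 0.40, adjusted p = 0.00405). Both cKO libraries were below both WT libraries for 7 of the 10, as for 24.1% of all genes, and the median was -0.60. In cDC2s the sums overlapped, and Ccr2 (13.2 to 28.3 TPM in WT and 45.7 to 61.1 in cKO, adjusted p = 0.00682), Csf1r (0.94 ± 0.16, adjusted p = 0.00326) and Fcgr1 (1.15 ± 0.23, adjusted p = 0.00789) rose. The 8 early progenitor markers summed to 165 and 174 TPM in WT and 141 and 142 in cKO cDC1s and to 202 to 271 against 115 to 147 in cDC2s, and overlapped in pDCs. Both sums followed Kit, which read 153 and 143 TPM in WT and 110.4 and 111 in cKO cDC1s (-0.41 ± 0.15, adjusted p = 0.0566) and fell in cDC2s (-0.88 ± 0.13, adjusted p = 0.00155), whereas Cd34 rose in cDC1s, with 2.18 and 3.43 TPM in WT and 11.03 and 10.5 in cKO (1.65 ± 0.20, adjusted p = 0.000245). Mpo, Ctsg, Elane and Prtn3 were at most 1.11 TPM. The 9 erythroid markers varied from 385 to 10738 TPM and overlapped between genotypes in every subset, with Klf1 and Gata1 at most 0.56 TPM. The 5 NK cell markers summed to at most 4.99 TPM.

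In GENCODE vM21, 12 of the 47 genes share exon bases with another protein-coding gene, among them Cdc45 (with Ufd1), Gins2 (Gse1), Lig1 (Zswim9), Mcm7 (Ap4m1 and Cops6) and Chaf1a (Ubxn6), each on the opposite strand. Whether the counting used strand is not given in the sources used here, and without it the reads of such pairs cannot be told apart. Pcna and Tyms have named processed copies with which reads may be shared.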

How the data were processed

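RNA of sorted spleen DCs was sequenced by the study as single-end 50-base reads on the BGISEQ-500. The authors filtered the reads with SOAPnuke, mapped them with Bowtie2 2.2.5 and estimated levels with RSEM 1.2.12. TPM values and FPKM values per library were deposited, with pDCs and cDCs in separate tables. The transcript reference release is not given in the sources used here. TPM is a share, so a change in other genes shifts each value.

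IDs were named through RefSeq (17079 of 17128 and 17667 of 17721). limma 3.58.1 (R 4.3.3) with a trended eBayes was fitted to log2(TPM + 1), which understates changes of low genes, for 11299 (pDC) and 11411 (cDC) genes averaging 1 TPM or more, since a count model as used in the study needs counts. One model covered all 10 cDC libraries, by group. p-values are two-sided, adjusted by Benjamini-Hochberg across each whole table, and measure the spread between pools. Same-numbered WT and cKO pDC libraries deviated together (r = 0.31, 0.392 and 0.206), a pairing seen in the data and not stated by the labels, unlike cDC1s (-0.233) and cDC2s (-0.249, 0.253 and -0.165). Fits and depth estimates were tested on simulated data. Alternatives were other scalings, filters, pseudocounts, thresholds, a replicate block, separate fits and leaving out each library.

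Fully described are, per genotype comparison, the genes with the largest and smallest absolute fold change in each of 7 roles, with complexes as values and the 5 largest changes of each related list. Genes, lists and tests were chosen with earlier results of these data known. Some genes that the rule would name are not reported here.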

Additional observations from a re-analysis of the deposited data

Results flagged for a closer look

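For 2 genes of the related lists the genotype effect differed between cDC1s and cDC2s by the test of that difference. Cdc7, the kinase that fires licensed origins, read 7.36 and 7.65 TPM in WT cDC1s and 22.5 and 21.8 in cKO cDC1s, and 15.7, 20.8 and 23.1 in WT cDC2s and 24.8, 25.8 and 22.8 in cKO cDC2s. Its cDC1 effect exceeded its cDC2 effect by 1.14 ± 0.20 on the log2 scale (SE, limma adjusted p = 0.00939), with an adjusted p of 0.00188 to 0.0579 over the alternatives. E2f2, an activating E2F, read 8.9 and 9.15 TPM in WT cDC1s and 26.9 and 23.4 in cKO cDC1s, and 34.9, 42.7 and 43.5 in WT cDC2s and 54.2, 47.8 and 50.8 in cKO cDC2s. The difference was 1.05 ± 0.17 (SE, limma adjusted p = 0.00583), with an adjusted p of 0.00319 to 0.046 over the alternatives. Neither was called with the replicate block, and both had lower levels in WT cDC1s than in WT cDC2s. No group held the 4 libraries needed to look for a library that stands apart.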

How the results depend on the processing

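The direction of the median of the 47 genes in the 3 genotype comparisons held under every alternative run, but the numbers called did not. In pDCs, 10 of the 47 (119 of all genes) became 0 (24) without the filter, 5 (56) without the eBayes trend, 25 (514) at an adjusted p of 0.05 with no fold limit, and 19 (335) with the replicate block. At that adjusted p all genes numbered 4522 in cDC1s (2555 as reported), 2274 in cDC2s (816), 5557 between WT cDCs (3612), 5110 between cKO cDCs (3230) and 1286 for the interaction (292), and the 47 gave 7 between WT cDCs, 25 between cKO cDCs and 8 for the interaction. In cDC2s, 18 of the 47 and 356 of all genes were called with the replicate block, and 17 and 444 with cDC2s fitted alone. Quantile normalization gave 5 of the 47 between WT cDCs, and FPKM 1 for the interaction, where the replicate block left 95 of all genes. The cDC1 numbers, which may be crossed, gave 45 of the 47 (1890 of all genes) with the labelled block and 44 (2091) with the crossed block, which was added after seeing the data. Leaving out 1 library gave 0 to 12 of the 47 in pDCs, 36 to 46 in cDC1s, 16 to 33 in cDC2s, 2 to 3 between WT cDCs, 3 to 18 between cKO cDCs and 0 to 1 for the interaction, and 12 to 97, 800 to 2888 and 316 to 907 of all genes in the 3 subsets. The sign turned for genes near 0: Pold3 (-0.0274 to 0.0522) and Rfc1 (-0.0364 to 0.0588) in pDCs and Gins3 (-0.116 to 0.179) in cDC2s. The cause of these moves was not tested. Depth limits what can be read of genes under about 0.185 TPM.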
